A study of Homo sapiens with 10 samples.

Results

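Heat-shocked control cells were set against unheated control cells across all genes, in U2OS, a human osteosarcoma line. The comparison rests on 4 of the 10 samples of the series, and on 4 of the 6 that have gene counts, chosen by their labels alone: 2 libraries of unheated cells (labelled NHS) and 2 of heat-shocked cells (labelled HS). All 4 are labelled WT and carry the control reagent of a knockdown experiment, which the sample titles call shCtrl and the descriptions siCtrl. The other group with counts, 2 libraries of heat-shocked cells treated against YTHDC1 (shYTHDC1 in the titles, siDC1 in the descriptions), entered the statistical model to help estimate the spread and is set beside a few genes at the end. How hot, for how long and with what recovery the cells were heated is not given in the sources used here. Another 4 samples, of methylated RNA immunoprecipitation, were not analysed here. The series asks how genes of non-homologous end joining, which rejoins broken DNA ends, behave in heat, and this comparison is its measure of heat alone.

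Heat unfolds proteins, and cells answer by making chaperones, proteins that hold and refold other proteins. The factor HSF1 is kept inactive by chaperones in unheated cells. When unfolded proteins draw those chaperones away, HSF1 assembles, binds heat shock elements, which are inverted repeats of the letters GAA, and raises transcription of chaperone genes, while transcription of many other genes falls. HSP70 proteins work with HSP40 (DNAJ) partners that bring them clients, with HSP110 and BAG proteins that release the nucleotide, and hand many clients on to HSP90.

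The 6 libraries held between 13252370 and 15500743 counts, of which mitochondrially encoded genes took 5.09% to 6.12%. Levels below are CPM, a gene's counts relative to its library's total, scaled by TMM, a correction for unequal library composition. A gene is said to have risen or fallen when its adjusted p was under 0.05. The labels do not tell whether the libraries came from separate cultures. The p-values therefore reflect only the spread among these libraries, which may be technical. In such bulk libraries fewer cells of a kind and less RNA per cell cannot be told apart.

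The 3 heat shock markers followed the labels in every library. HSPA6, an HSP70 made almost only under stress (chr1:161524540-161526894), stood at 4.79 and 4.69 CPM in the unheated libraries and at 1460 and 1536 CPM in the heat-shocked ones. HSPA1A, the main inducible HSP70 (chr6:31815543-31817942), stood at 52.5 and 49.5 CPM against 4479 and 4801 CPM. DNAJB1, the HSP40 that serves it (chr19:14514769-14560391), stood at 170.1 and 169 CPM against 2756 and 2732 CPM. For all 3 genes both heated libraries lay above both unheated ones by more than 10-fold.

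Markers of the osteoblast lineage were present only in part. COL1A1, a collagen chain, stood at 1322 to 1425 CPM in the 4 libraries, SPARC at 1209 to 1337 CPM and VIM at 1589 to 1681 CPM, and none of these passed the test. RUNX2, the lineage's transcription factor, fell from 20.8 and 21.8 to 13.5 and 14.1 CPM. COL1A2 was under 1 CPM in each of the 4 libraries, and BGLAP, IBSP and SP7 did not reach the level needed for testing. Of 7 epithelial markers 5 were tested, 1 rose (CLDN4) and 1 fell (KRT5, adjusted p = 0.0202, and 0.146 with DESeq2), and together the 7 took 0.00562% to 0.00776% of counts. Of 9 blood markers 4 were tested and together the 9 took 0.00268% to 0.0033% of counts. HBA2 had no count in either unheated library and stood at 1.08 and 6.31 CPM in the heated ones, which did not pass the test (adjusted p = 0.189). With DESeq2, and also with a replicate block, 1 blood marker was called higher. The part of other cell types in the results was not tested.

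Of 17290 genes tested, 3559 rose (20.6%) and 4033 fell (23.3%). Rises were the larger changes. At least 2-fold rises numbered 1006 (5.82%) against 606 falls of that size (3.5%). At least 4-fold there were 361 rises and 65 falls, at least 8-fold 137 and 8, and at least 16-fold 67 and 2. Many of the at least 2-fold changes were at low levels. Genes under 1 CPM on average held 262 such rises and 152 such falls. Those at 1 to 5 CPM held 375 and 221, and those over 50 CPM 126 and 45. The median log2 fold change was -0.03 over all tested genes, 0.53 among those that rose and -0.47 among those that fell. In 7587 of the 7592 genes that passed the test, the 2 heated libraries lay wholly above or wholly below the 2 unheated ones. Among all 17290 tested genes they lay wholly above in 5783 and wholly below in 6709. The test used the same values, so this separation is no further evidence. Scaling by library size alone gave 2932 rises and 5092 falls, so that rises made up 36.5% of the calls in place of 46.9%. DESeq2 in place of edgeR called 2647 rises and 2514 falls, and 378 falls of at least 2-fold.

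**Figure D1:**
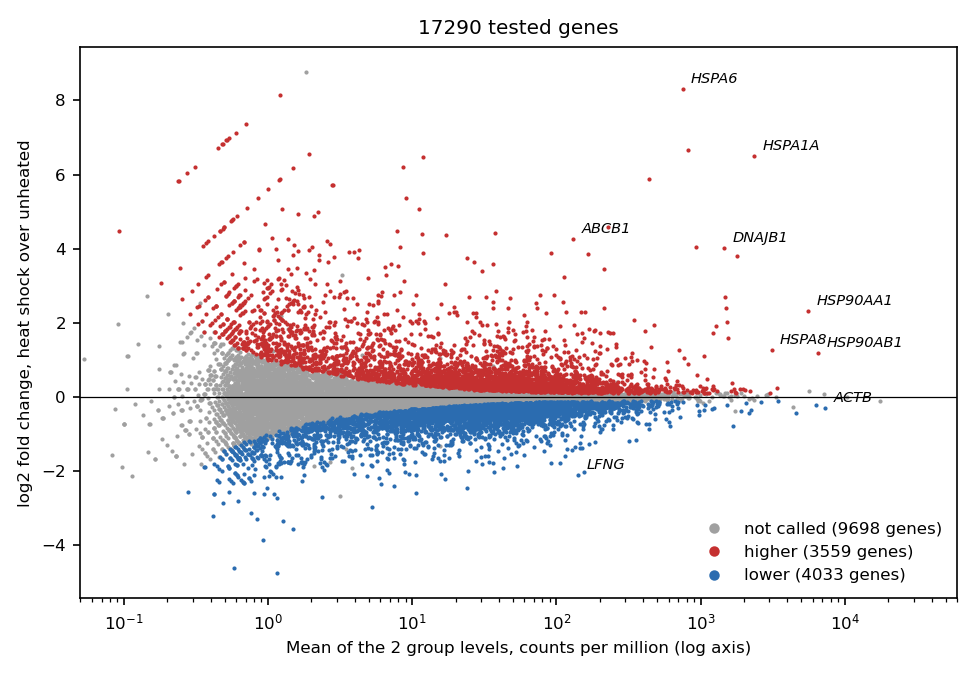
Each point is 1 of the 17290 tested genes, with the mean of the 2 group levels in CPM on a log axis across and the log2 fold change of heat-shocked over unheated cells upward. Red points are the 3559 genes that rose and blue points the 4033 that fell, and the rises reach further from 0 than the falls.

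Chaperone genes gained the most RNA. Ranked by CPM gained and not by fold, the 12 largest gains included HSP90AA1, HSP90AB1, HSPA1A, HSPH1, HSPA8, DNAJB1, SERPINH1, FKBP4, HSPB1, BAG3 and HSPA1B, all chaperones or their partners. The 12 genes held 1.06% and 1.09% of the counts in the unheated libraries and 4.53% and 4.61% in the heated ones. The 5 chaperone lists together, 115 genes, went from 2.56% and 2.6% of counts to 6.74% and 6.78%. The 1006 genes that rose at least 2-fold held 2.34% and 2.38% before and 8.4% and 8.46% after. The 12 and the 1006 genes were chosen for rising in these same libraries, so the direction of their shares was fixed by the choice.

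HSP90AA1, the inducible cytosolic HSP90, gained 7445 CPM, the most of any gene. It stood at 1813 and 1900 CPM in the unheated libraries and 9326 and 9276 CPM in the heated ones (log2 fold change 2.33 ± 0.05 SE, adjusted p = 3.45e-21). Its constitutive sister HSP90AB1 went from 3918 and 4016 to 8924 and 9149 CPM (1.19 ± 0.05, adjusted p = 2.81e-16). HSPA8, the constitutive HSP70, went from 1804 and 1840 to 4348 and 4462 CPM (1.27 ± 0.05). Genes that were already abundant thus gained much RNA with modest folds, whereas HSPA6 gained less with a log2 fold change of 8.30 ± 0.08. No library of one group reached the other for any of these genes.

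**Figure D2:**
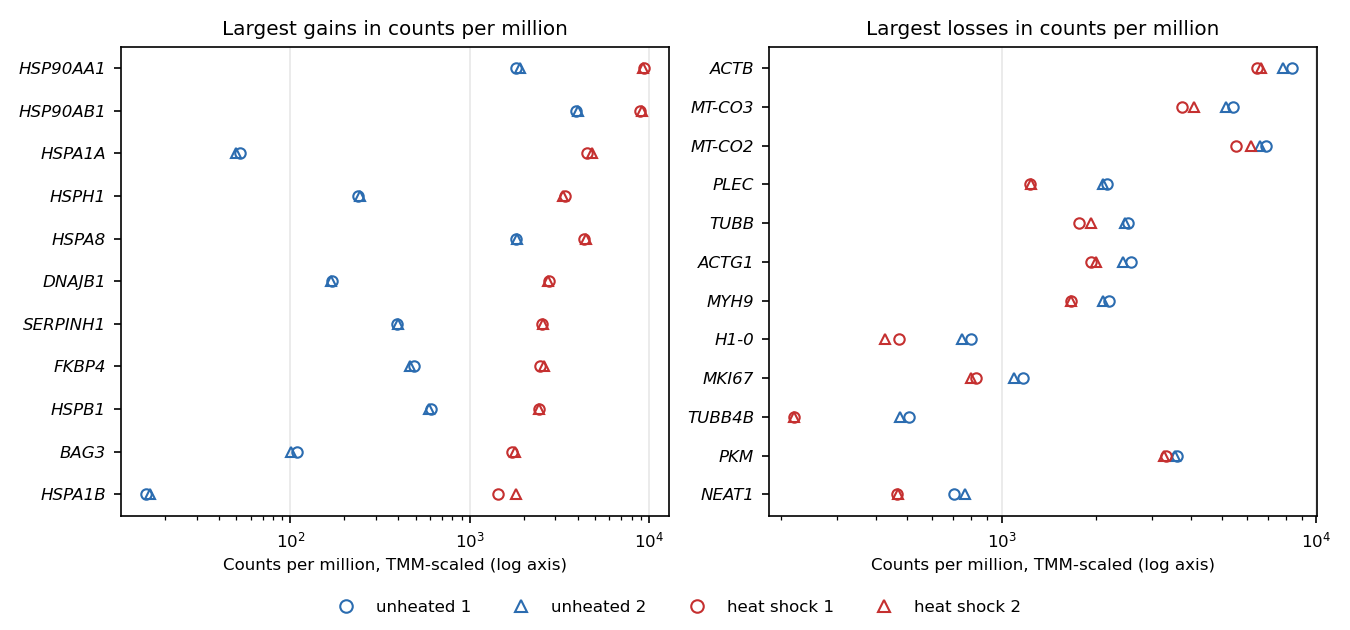
Levels in CPM on a log axis of genes with the largest gain (left) and the largest loss (right), with 1 symbol per library, unheated in blue and heat-shocked in red. HSPA1A moves from 52.5 and 49.5 to 4479 and 4801 CPM, while HSP90AB1 and ACTB move by less but from higher levels.

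Per kilobase of exon, levels of different genes can be set side by side roughly. The length used is the exon length deposited with the counts, which may differ from that of the RNA made. HSPA1A went from rank 1920 of the tested genes, at 21.2 CPM per kilobase, to rank 14, at 1930 CPM per kilobase. By this measure HSPA1A was above ACTB, cytoplasmic beta-actin, which ranked 17 in heated cells at 1491 CPM per kilobase. Without the division ACTB was the higher in heated cells, at 6569 CPM on average against 4640 CPM for HSPA1A. The order of these 2 genes thus depends on the length used. HSPA6 went from rank 10301 to rank 39 and HSPA1B from rank 5933 to rank 37. HSPB1, a small heat shock protein that holds unfolded chains without using ATP, went from rank 63 to rank 16. HSPA1A and HSPA1B are near-identical copies and the handling of reads that fit both is not given in the sources used here, so the split between them is uncertain. The 2 heated libraries lay apart there, with HSPA1B going from 15.6 and 16.6 to 1431 and 1813 CPM (adjusted p = 4.63e-06).

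The chaperone families responded to unlike extents. Of 14 tested genes of the HSP70 and HSP110 family 10 rose, with a median log2 fold change of 1.20, and the other 4 did not pass the test. HSPH1, an HSP110 that resets HSP70, went from 239 and 245 to 3402 and 3320 CPM (3.79 ± 0.05, adjusted p = 1.28e-25). In the HSP40 family 16 of 41 rose and 9 fell, with a median of 0.10. Over all tested genes 20.6% rose and 23.3% fell, so the falls in this family were close to the share over all genes. DNAJA4 rose from 14.9 and 14 to 869 and 843 CPM and DNAJB4 from 34.7 and 37 to 396 and 392 CPM. DNAJC30, a mitochondrial member, fell from 7.63 and 6.55 to 2.46 and 3.01 CPM. Falls in the family numbered 5 when any 1 of the 4 libraries was left out and 3 with DESeq2.

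Of 24 HSP90 genes and co-chaperones 13 rose and 5 fell (median 0.29), the falls being close to the share over all genes. FKBP4, a peptidyl-prolyl isomerase bound to HSP90, rose from 486 and 466 to 2465 and 2598 CPM, and CHORDC1 rose 4.23-fold. STUB1, a ubiquitin ligase that marks chaperone clients for degradation, fell from 99.8 and 99.4 to 73.8 and 77.7 CPM. The 5 falls came down to 1 when unheated replicate 2 or heated replicate 2 was left out, to 2 without unheated replicate 1 or heated replicate 1, and to 1 with DESeq2. Among small heat shock proteins and BAG proteins 6 of 12 rose (median 0.13). BAG3, which links HSP70 to autophagy, went from 109 and 101 to 1707 and 1791 CPM, CRYAB, a small heat shock protein, from 20.4 and 22 to 305 and 315 CPM, and HSPB8 rose 5.92-fold. BAG1 fell from 55.2 and 52.9 to 46.3 and 44.9 CPM, a call that DESeq2 did not make. Of 18 genes of chaperonins, the barrel-shaped folding machines, and prefoldin 14 rose, with a median of 0.28. The mitochondrial HSPD1 rose 3.81-fold, while TCP1, a subunit of the cytosolic chaperonin, rose 1.91-fold.

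**Figure D3:**
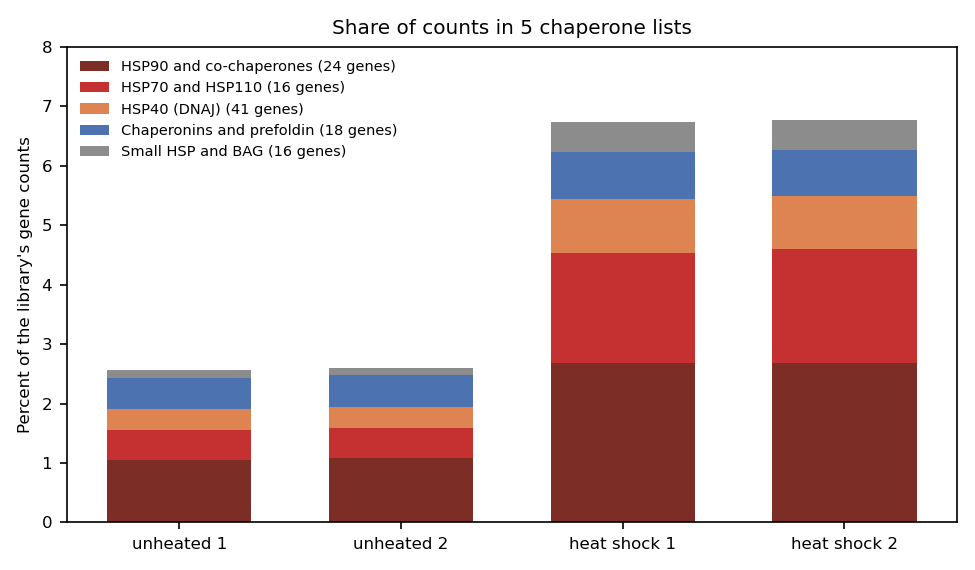
Percent of each library's gene counts that fell in 5 chaperone lists, stacked by list, for the 2 unheated and the 2 heat-shocked libraries. The totals are 2.56% and 2.6% before and 6.74% and 6.78% after heat shock, with the HSP90 and HSP70 lists adding the most.

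Some genes that rose have a promoter with the element that HSF1 is known to bind. The sequences run from 150 bases before to 50 after the RefSeq start (GRCh38.p14), 5′ to 3′ on the gene's strand, and capitals mark matches to GAANNTTC or TTCNNGAA, a pair of inverted units, on either strand. Promoters were scanned for 480 of the 1006 genes that rose at least 2-fold. Among these 480, 16 had a promoter with 3 alternating units, GAANNTTC followed by NNGAA or TTCNNGAA followed by NNTTC. Shown are the 3 markers, the next 4 of these genes by fold at a mean of at least 5 CPM, and DNAJA1, whose element is shared with a neighbour. All shown except the 3 markers were thus chosen for holding 3 units. In HSPA6, SERPINH1, ABHD3, HSP90AA1, CHORDC1 and DNAJA1 the first 3-unit match starts 74, 76, 145, 88 and 60 bases before the start and 3 bases after it, in that order. HSPA1A and DNAJB1 hold only 2-unit matches to these exact letters.
HSPA6, chr1:161524390-161524589, plus strand: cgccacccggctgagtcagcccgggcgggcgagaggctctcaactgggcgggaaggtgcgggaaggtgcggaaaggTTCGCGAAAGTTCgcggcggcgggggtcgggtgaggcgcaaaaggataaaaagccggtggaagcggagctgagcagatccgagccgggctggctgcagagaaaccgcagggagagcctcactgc
HSPA1A, chr6:31815393-31815592, plus strand: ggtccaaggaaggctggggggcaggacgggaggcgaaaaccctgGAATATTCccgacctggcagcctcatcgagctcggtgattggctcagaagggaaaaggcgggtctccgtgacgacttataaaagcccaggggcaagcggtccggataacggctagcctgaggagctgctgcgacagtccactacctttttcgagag
DNAJB1, chr19:14518348-14518547, minus strand, 1 of 3 RefSeq starts: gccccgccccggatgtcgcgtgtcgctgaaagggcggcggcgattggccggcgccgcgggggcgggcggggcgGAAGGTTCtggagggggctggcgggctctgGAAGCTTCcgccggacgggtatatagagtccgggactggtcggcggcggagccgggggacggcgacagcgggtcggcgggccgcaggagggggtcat
SERPINH1, chr11:75562103-75562302, plus strand: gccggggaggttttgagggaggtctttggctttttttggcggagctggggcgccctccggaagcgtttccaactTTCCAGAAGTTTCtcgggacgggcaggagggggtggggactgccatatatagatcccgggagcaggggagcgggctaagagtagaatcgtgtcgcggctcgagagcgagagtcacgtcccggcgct
ABHD3, chr18:21704725-21704924, minus strand: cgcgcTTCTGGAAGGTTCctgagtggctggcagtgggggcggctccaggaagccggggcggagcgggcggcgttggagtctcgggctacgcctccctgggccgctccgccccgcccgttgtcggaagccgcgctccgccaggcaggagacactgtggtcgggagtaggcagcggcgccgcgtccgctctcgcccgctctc
HSP90AA1, chr14:102086995-102087194, minus strand: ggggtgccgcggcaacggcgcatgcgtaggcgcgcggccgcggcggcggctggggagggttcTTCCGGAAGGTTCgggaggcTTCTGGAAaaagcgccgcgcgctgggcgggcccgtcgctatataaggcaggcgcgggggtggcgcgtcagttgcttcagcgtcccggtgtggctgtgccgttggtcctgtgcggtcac
CHORDC1, chr11:90223000-90223199, minus strand: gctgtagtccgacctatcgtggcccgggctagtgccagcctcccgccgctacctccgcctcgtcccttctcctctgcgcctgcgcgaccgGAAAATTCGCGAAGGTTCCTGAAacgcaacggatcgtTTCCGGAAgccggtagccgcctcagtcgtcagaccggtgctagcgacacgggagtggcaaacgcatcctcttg
DNAJA1, chr9:33025123-33025322, plus strand: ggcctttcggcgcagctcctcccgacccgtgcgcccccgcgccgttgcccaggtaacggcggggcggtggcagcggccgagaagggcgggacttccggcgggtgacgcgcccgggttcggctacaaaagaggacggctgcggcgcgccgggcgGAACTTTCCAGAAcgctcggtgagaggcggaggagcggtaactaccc

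SERPINH1, a collagen chaperone of the endoplasmic reticulum, rose from 390.1 and 398 to 2538 and 2546 CPM. ABHD3, a phospholipase and no chaperone, rose to a log2 fold change of 2.57. Over the 11843 tested genes with a scanned promoter, the share of promoters with the 3-unit element was higher among genes that rose. The share was counted in the full 300-base windows (250 before to 50 after the start). It was 3.74% (8 of 214 promoters) for genes that rose at least 4-fold, 2.57% for at least 2-fold rises and 0.972% for all rises. It was 0.251% for genes that did not pass the test and 0.134% for falls (0.208% for falls of at least 2-fold), against 0.371% of the 17245 promoters of tested genes and 0.49% of all 35116 RefSeq promoters. The element was thus present in 17 of 662 scanned promoters of genes that rose at least 2-fold and absent in these exact letters from most. Of the genes that held it, TDRG1, HLA-G and LINC02324 had mean levels of only 0.521, 0.484 and 0.423 CPM. The 2-unit element, which the 3-unit element contains, was in 22% of promoters at rises of 4-fold or more, 14.7% at all rises, 8.56% at all falls and 11% at falls of 2-fold or more, against 10.7% over all tested genes.

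Other motifs differed less or in another way. TATAAA was in 12.5% of promoters of genes that rose at least 2-fold, in 9.79% of those that fell at least 2-fold and in 6.72% over all tested genes. TGATGCAA, the amino acid response element bound by ATF4, was in 1.08% at rises, 0.334% at falls and 0.62% over all. TGACGTCA, the cAMP response element, was in 2.56% at rises and 2.61% at falls, and TGACTCA, the AP-1 site, in 4.25% and 3.9%. CCAAT was in 35.5% and 34.7%. The CArG box of SRF was in 1.19% and 1.34%. These shares are descriptions with no test, and a match is not a bound site.

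**Figure D4:**
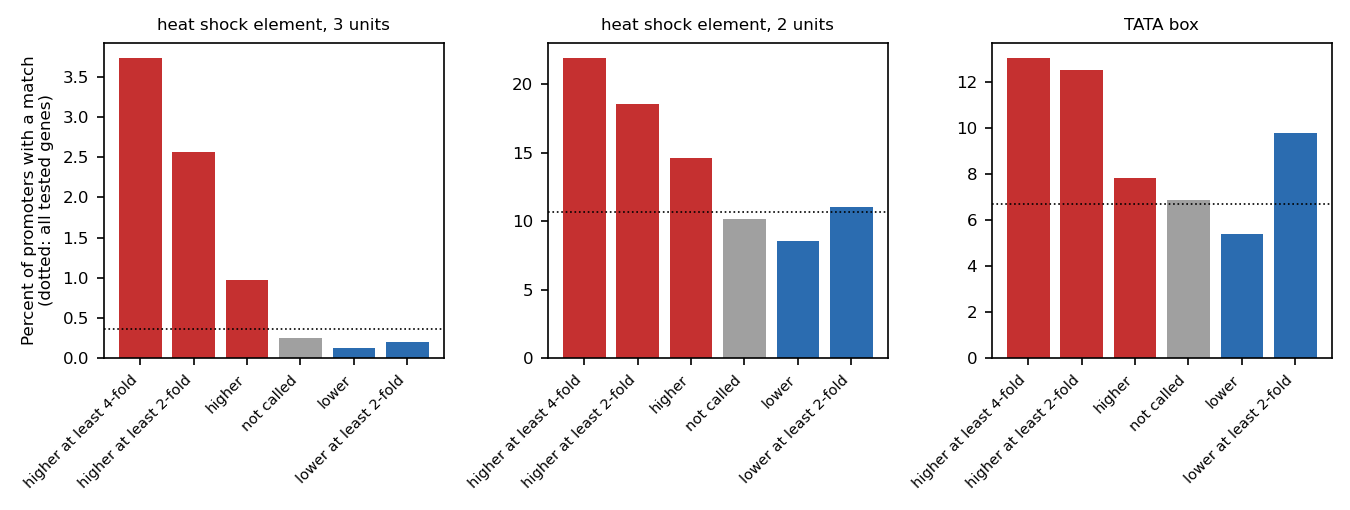
Percent of RefSeq promoters with a match to 3 alternating heat shock units, to 2 such units and to TATAAA, for genes grouped by their response. The dotted line is the share over all tested genes (0.371%, 10.7% and 6.72%), and the 3-unit element falls from 3.74% among rises of at least 4-fold to 0.134% among falls.

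Genes that start beside a heat-raised gene were compared with all genes in such pairs, as a description with no test. Where 2 genes pointed away from each other with starts within 1 kb and without overlap, 32 of the 79 genes (40.5%) whose partner rose at least 2-fold also rose, compared with 21% of all 2208 genes in such pairs. Where the partner fell at least 2-fold, 29 of 65 (44.6%) fell, compared with 25.3% of all. HSPD1 and HSPE1, which encode the mitochondrial chaperonin and its lid, start 105 bases apart and had log2 fold changes of 1.93 and 1.64. HSPA1A and HSPA1L start 260 bases apart (6.51 and 4.42). TCP1 and MRPL18 start 210 bases apart (0.94 and 1.73). AHSA1, which speeds the HSP90 cycle, and VIPAS39 start 266 bases apart (1.77 and 0.74). Other partners did not move together: MIB1 starts 142 bases from ABHD3 and did not pass the test, and ZNF526, 178 bases from DEDD2, fell by 0.81 on the log2 scale while DEDD2 rose by 3.25. The pairs named were chosen after their values were seen.

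The pair DNAJA1 and APTX bears on the end joining genes. DNAJA1, an HSP40, went from 556 and 578 to 1870 and 1875 CPM. APTX, which removes abortive ligation products from DNA ends, starts 153 bases away on the other strand. The 3-unit match in DNAJA1's promoter (chr9:33025276-33025288) also lies in an APTX promoter, 168 bases before that start. Another RefSeq promoter of APTX, at chr9:33001579-33001878, holds no 3-unit or 2-unit match. APTX rose from 47.2 and 48.3 to 70.6 and 70 CPM (log2 fold change 0.56 ± 0.06, adjusted p = 4.79e-08). Whether the shared element acts on APTX was not tested.

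On the same strand, 16 of the 57 genes (28.1%) that start within 5 kb beyond a gene raised at least 2-fold rose, compared with 19.7% of all 1561 such pairs. More of the 57 fell, 19 of them, compared with 423 of the 1561, and their median log2 fold change was 0.01. Within 2 kb 8 of 28 rose and 11 fell. Beyond genes raised at least 4-fold, within 5 kb, 7 of 19 (36.8%) rose and 4 fell. C2orf66, which went from 0.0631 to 2.42 CPM on average, lies 4734 bases before GTF3C3, which went from 49.6 to 86.7 CPM. The gene after HSPA1B, SNHG32, did not pass the test (4.54 and 3.67 CPM on average), nor did MXRA7 after JMJD6. Because the counting of strand and of reads past a gene's end is not given, RNA reading on from an upstream gene and transcription of the downstream gene cannot be told apart.

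Genes driven by ATF4, the factor of amino acid and folding stress, were mostly higher. Of 30 tested 25 rose and 2 fell, with a median of 0.45. CHAC1, which breaks down glutathione, rose from 6.69 and 6.42 to 41.8 and 43.4 CPM. ASNS, asparagine synthetase, rose from 3.15 and 3.53 to 13.2 and 10.3 CPM. GADD45A fell from 113 and 112 to 79.5 and 78.1 CPM, and ATF5 fell from 20.4 and 18.4 to 11.6 and 10.7 CPM. Genes of folding and degradation in the endoplasmic reticulum rose in 14 of 30 cases and fell in 2 (median 0.14), at smaller size: EDEM3 rose 1.7-fold, EIF2AK3, the kinase PERK, 1.53-fold and XBP1 1.4-fold, while EDEM1 fell 1.36-fold. The 2 falls came to 1 without unheated replicate 1 or heated replicate 1, and with DESeq2.

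Degradation genes moved in both directions, beside 20.6% rising and 23.3% falling over all tested genes. UBB, a polyubiquitin gene, went from 504 and 499.6 to 1028 and 1044 CPM. ZFAND2A, which assists the proteasome under stress, went from 17.7 and 18.9 to 451 and 428 CPM. Of 26 genes in the ubiquitin and autophagy receptor list 11 rose and 9 fell (median 0.12), and the falls included ULK1, the kinase that starts autophagy, from 30.2 and 30.5 to 18.6 and 17.5 CPM. Proteasome subunits hardly moved, with 6 of 37 rising, a median of 0.02 and a largest change of 1.32-fold, in the assembly factor PSMG2. Leaving out unheated replicate 2 brought those 6 to 3, and using only the 4 libraries brought them to 12.

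**Figure D5:**
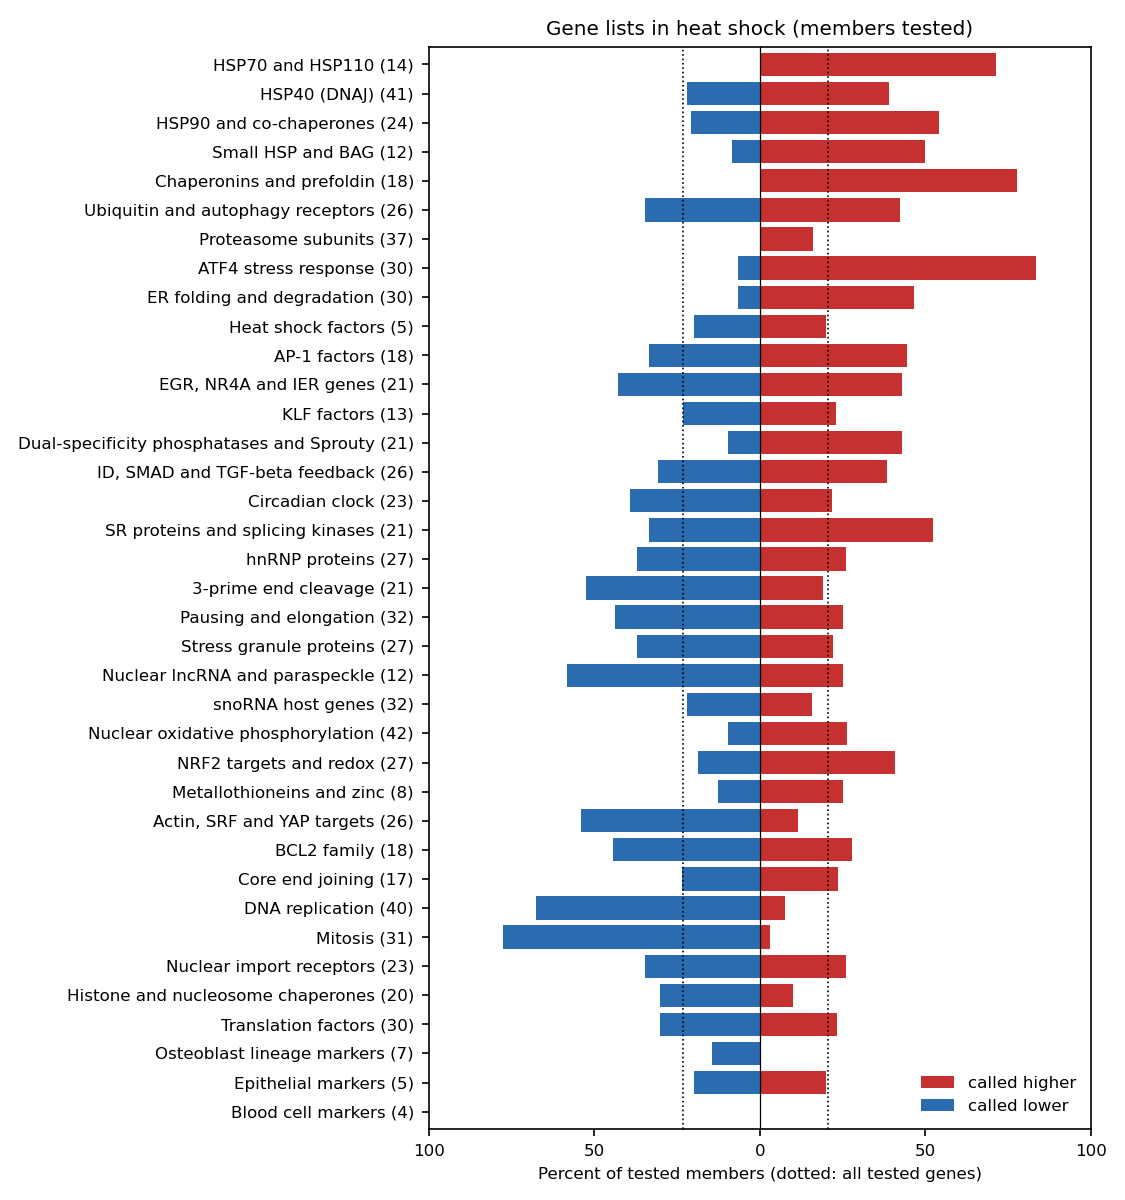
Percent of tested members that rose (red, right) and fell (blue, left) in each gene list other than the 3 heat shock markers, with the number tested in brackets and dotted lines at the 20.6% and 23.3% of all tested genes. ATF4 genes, chaperonins and the HSP70 family extend furthest to the right, and mitosis and DNA replication furthest to the left.

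Early-response transcription factors went both ways, beside 20.6% rising and 23.3% falling over all tested genes. Of 18 AP-1 genes 8 rose and 6 fell (median 0.14). FOS rose from 5.68 and 5.53 to 65.8 and 68.2 CPM, and MAFF rose 3.09-fold. JUND fell from 72.8 and 64.2 to 37.6 and 40.2 CPM. Of 21 EGR, NR4A and IER genes 9 rose and 9 fell (median 0.06), with NR4A3, an orphan nuclear receptor, rising 5.13-fold and EGR2 3.91-fold. BTG2, an antiproliferative p53 target, fell 4.09-fold, and IER3 fell from 84.6 and 82.6 to 23.1 and 23.1 CPM. KLF10 rose 1.88-fold while KLF6 fell 3.14-fold, in a family with 3 rises and 3 falls among 13, close to the shares over all genes. Among 21 feedback phosphatases and Sprouty genes of MAP kinase signalling 9 rose and 2 fell, and DUSP1 went from 11.8 and 12.8 to 38.4 and 37.3 CPM. Among ID, SMAD and TGF-beta feedback genes 10 of 26 rose and 8 fell. ID3 stood at 34.5 and 34.2 CPM before and 99.8 and 111 CPM after, with adjusted p = 0.0336, a call lost when any 1 of the 4 libraries was left out (adjusted p = 0.128 to 0.171). HSF1 itself stood at 155 and 150.1 CPM before and 146 and 148 CPM after and did not pass the test, while HSF2 fell 1.59-fold.

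Where the mean level reached 50 CPM, the strongest 10 falls included LFNG, ENC1, IER3, PLK2, SOX9, TNFRSF11B, ZFP36L2, RBM12 and CCN2. LFNG, a glycosyltransferase that tunes Notch receptors, fell from 232 and 224 to 53.3 and 53.2 CPM (log2 fold change -2.10 ± 0.05, adjusted p = 4.95e-20). SOX9, a transcription factor of cartilage, fell from 176 and 154 to 47.9 and 48.7 CPM. CCN2, a matrix protein and target of YAP, fell from 191 and 182 to 68.7 and 71.2 CPM. TNFRSF11B, the decoy receptor osteoprotegerin, fell from 87.9 and 89.5 to 29.6 and 30.5 CPM. Its adjusted p was 0.00766 and rose to 0.0544 to 0.0904 when 1 of the 4 libraries was left out. Among the 10 largest rises at this level, ABCB1 and HUNK stand outside the chaperone and degradation lists. ABCB1, the drug efflux pump P-glycoprotein, went from 14.4 and 11.5 to 242 and 254 CPM (4.25 ± 0.08, adjusted p = 7.02e-22). HUNK, a kinase, went from 11.3 and 11.8 to 169 and 174 CPM.

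Cytoskeletal and mitochondrially encoded genes were among the largest losses in CPM. ACTB stood at 8351 and 7847 CPM before and 6460 and 6679 CPM after (log2 fold change -0.30 ± 0.05, adjusted p = 2.3e-05). ACTG1, gamma-actin, MYH9, a non-muscle myosin, and TUBB, a tubulin, fell 1.28-fold, 1.29-fold and 1.35-fold. PLEC, a linker of the cytoskeleton, fell from 2164 and 2095 to 1231 and 1244 CPM. TUBB4B fell from 507 and 475 to 219 and 218 CPM. Of 26 actin, SRF and YAP target genes 14 fell and 3 rose, with a median of -0.15. F3, tissue factor, fell 3.04-fold and CCN1 1.71-fold, whereas AMOTL1 rose 1.51-fold. The mitochondrially encoded MT-CO3 fell from 5427 and 5167 to 3738 and 4083 CPM. MT-CO2 stood at 6923 and 6631 against 5536 and 6193 CPM. Its adjusted p of 0.0114 became 0.177 with limma voom, 0.162 with DESeq2, 0.096 without unheated replicate 1 and 0.125 without heated replicate 1.

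Genes of cell division fell broadly. Of 31 mitosis genes 24 fell and 1 rose (median -0.39), and of 40 DNA replication genes 27 fell and 3 rose (median -0.27). KIF11, a motor of the spindle, fell from 144 and 148 to 84.7 and 83.9 CPM and KIF2C fell 1.64-fold. UBE2C, which helps degrade cyclins, was the 1 mitosis gene to rise, from 70.4 and 70.6 to 96.9 and 103 CPM. PCNA, the sliding clamp of DNA polymerases, fell from 190.4 and 194 to 78.7 and 72.9 CPM, and FEN1, a flap nuclease, fell from 160.5 and 156 to 72.1 and 69.5 CPM. ORC6 rose 1.23-fold. CDC6, in the same list, rose 1.15-fold, a call lost without unheated replicate 1 and with library size alone. Rises in the replication list came to 1 without that library. MKI67, a marker of cycling cells, fell 1.4-fold.

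RNA-processing genes were divided within families, beside 20.6% rising and 23.3% falling over all tested genes. Of 21 SR proteins and their kinases 11 rose and 7 fell (median 0.12). CLK1, a kinase that phosphorylates SR proteins, rose from 74.9 and 79.1 to 245 and 222 CPM and CLK4 rose 1.87-fold, while SRSF2 fell from 232 and 232 to 132 and 137 CPM. The 7 falls came to 3 without unheated replicate 1 and to 4 without heated replicate 2 or with DESeq2. Of 21 factors that cleave and tail messenger RNA 11 fell and 4 rose (median -0.17). CSTF1 fell 1.78-fold and PCF11, which couples cleavage to termination, rose 1.62-fold. The 11 falls came to 7 without unheated replicate 1 or heated replicate 2 and to 6 with DESeq2. Of 32 genes of polymerase pausing and elongation 14 fell and 8 rose (median -0.09). POLR2A, the largest subunit of RNA polymerase II, fell from 229.5 and 230.0 to 159.6 and 146 CPM, and HEXIM1, which holds the elongation kinase inactive, fell 1.76-fold. DESeq2 called 9 of those falls. Among 27 stress granule proteins 10 fell and 6 rose. The rises among cleavage, pausing and stress granule genes were close to the share over all genes. DDX3X, an RNA helicase, fell from 519.8 and 518 to 320.0 and 309.6 CPM, and NUFIP2 rose from 194 and 195 to 401 and 402 CPM.

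In the BCL2 family, which decides on apoptosis, 5 of 18 rose and 8 fell (median -0.18). Over all tested genes 20.6% rose and 23.3% fell, so the rises were not far above that share. The 5 rises came to 3 with scaling by library size alone. MCL1, which protects cells, rose from 275 and 272 to 541 and 536 CPM. Among pro-apoptotic members HRK rose from 1.83 and 1.93 to 3.85 and 4.23 CPM. BID, another, rose from 35.5 and 29.1 to 49.1 and 46.7 CPM. BMF fell from 14.8 and 15.8 to 4 and 3.23 CPM, and BBC3 fell from 25.9 and 25 to 5.61 and 6.52 CPM. The 8 falls came to 5 without unheated replicate 1, and also to 5 with DESeq2.

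Of 17 core end joining genes 4 rose, 4 fell and 9 did not pass the test, with a median of 0.03, close to the shares over all genes. NHEJ1, the scaffold XLF, rose from 8.26 and 7.84 to 15.5 and 15.3 CPM (adjusted p = 2.98e-06), and with APTX it made up the rises that held when any 1 of the 4 libraries was left out. DCLRE1C, the nuclease Artemis, stood at 32.1 and 35.1 against 39.8 and 40.9 CPM, and PRKDC, the catalytic subunit of the end-sensing kinase, at 842 and 834 against 916 and 898 CPM. The call of PRKDC was lost when any 1 of the 4 libraries was left out, and that of DCLRE1C without unheated replicate 1 or heated replicate 2, which left 2 rises. POLM, a gap-filling polymerase, fell 1.6-fold, PAXX 1.42-fold and TDP1 1.41-fold. Other core members did not pass the test: XRCC5 stood at 638 and 631 against 664 and 646 CPM, XRCC6 at 814 and 816 against 856 and 794 CPM, and LIG4, the ligase, at 38.5 and 39.1 against 43.1 and 37.7 CPM.

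Some genes that encode no protein also changed. Of 1191 long noncoding genes 178 (14.95%) rose and 226 (18.98%) fell, at a median level of 1.86 CPM. Both shares were below the 20.6% and 23.3% of all tested genes. Long noncoding rises of at least 2-fold made up 7.64% and such falls 7.98%, above the 5.82% and 3.5% of all tested genes. Among tested genes of any class at 1 to 5 CPM, 14.7% rose and 12.7% fell. In that group rises of at least 2-fold made up 9.92% and such falls 5.85%. NEAT1, an abundant nuclear RNA, fell from 707 and 768 to 465 and 469 CPM. MALAT1, another, fell from 451 and 464 to 297 and 269.5 CPM. In their list with paraspeckle proteins 7 of 12 fell and 3 rose (median -0.16). SNHG12, a host gene of small nucleolar RNAs, fell from 23.9 and 21.9 to 8.54 and 6.24 CPM. MIR137HG rose from 0.505 and 0.835 to 14.2 and 16 CPM and LINC00877 from 1.26 and 0.835 to 22.8 and 22.2 CPM. HSPA7 went from 0.694 and 0.578 to 19.6 and 23.9 CPM. It is a pseudogene much like HSPA6, so reads of HSPA6 may be counted there. Of 821 pseudogenes 151 (18.4%) rose and 45 (5.48%) fell, whereas of 13460 protein-coding genes 2848 (21.2%) rose and 3557 (26.4%) fell.

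Large changes were more frequent in short genes, in both directions. Among protein-coding genes, rises of at least 2-fold made up 6.97% of those spanning under 5 kb, 4.49% from 5 to 20 kb, 3.75% from 20 to 100 kb and 2.75% over 100 kb. Falls of at least 2-fold made up 8.5%, 3.92%, 1.94% and 1.08% in the same order. At 50 CPM or more the shares were 5.65%, 3.39%, 2.25% and 1.86% for such rises and 3.18%, 1.47%, 0.655% and 0.348% for such falls. Counting changes of any size, 18.1% of genes under 5 kb rose and 30.4% fell, but at 50 CPM or more 31.1% rose and 27.9% fell. For changes of any size, falls thus did not outnumber rises among these short genes at 50 CPM or more. For 614 protein-coding genes the RefSeq span was at most 1.1 times the deposited exon length. Span and exon length come from different sources, so this set may hold genes with introns. Of these 614 genes 127 (20.7%) rose and 212 (34.5%) fell. At least 2-fold rises made up 7% of them and such falls 10.6%, against 4.03% and 2.88% of all protein-coding genes.

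In heat-shocked cells with YTHDC1 knocked down, 27.4% of the tested genes were higher and 27.2% lower than in heat-shocked controls. Of the 12 genes with the largest gain from heat, 3 were higher and 6 lower. The heat-shocked controls enter both comparisons, so only the values are given. HSPH1 stood at 3402 and 3320 CPM in heated controls and at 2308 and 2166 CPM in heated knockdown cells, still far above the unheated libraries (239.3 and 244.8 CPM). HSPA6 had a log2 difference of 0.01 between the heated groups (adjusted p = 0.935), HSPA1A of 0.18 (adjusted p = 0.00242) and SERPINH1 of -0.49 (adjusted p = 1.44e-09). NHEJ1 differed by -0.41 (adjusted p = 0.0084) and APTX by -0.24 (adjusted p = 0.0015), and in DESeq2 the adjusted p of NHEJ1 was 0.0713.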

How the data were processed

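Whole-number read counts per gene were deposited by the authors in 1 table of 63187 genes for 6 RNA-seq libraries. The submitters' processing notes list, without roles, the aligner HISAT2 2.2.1, the counter featureCounts 2.0.2, the trimmer Trim Galore 0.6.7, and also FastQC 0.11.8, SAMtools 1.17, MACS2, DESeq2 1.36.0, R 4.4.0 and the build GRCh38. For the annotation release, the strand setting and reads that fit several genes, the choice made is not given in the sources used here. Overlapping genes, antisense genes and near-identical copies are therefore uncertain.

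Counts were fitted in R 4.3.3 with edgeR 4.0.16 (TMM scaling, robust quasi-likelihood test, filterByExpr with a minimum count of 10), all 6 libraries in 1 model with 3 residual degrees of freedom. The p-values were Benjamini-Hochberg adjusted over 17290 genes, with a threshold of 0.05. The fit was tested on simulated data. Alternatives were DESeq2 1.42.0, limma 3.58.1 voom, scaling by library size, no filter, the 4 compared libraries alone, a replicate block, and each library left out. Libraries of a group differed beyond sampling noise. Genes without a symbol held 0.606% to 0.694% of counts. Promoters are RefSeq's (GRCh38.p14), matched by symbol, and were scanned for 11843 of the 17290 tested genes. For gene class and position 40421 of 42338 symbols matched RefSeq. Genes were named by rule: the 12 largest gains and losses in CPM, the 10 largest rises and falls by fold at 50 CPM or more, up to 3 rises and 3 falls per list, the 6 largest noncoding rises and falls, the markers, and all end joining genes. Genes in named pairs stand outside it. The members and lists were chosen with earlier results of these data known. Some genes that the rule names are not reported here.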

Additional observations from a re-analysis of the deposited data

How the results depend on the processing

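No gene that passed the test in both the edgeR fit and an alternative changed direction. DESeq2 called 2647 genes higher and 2514 lower, with 818 and 378 of at least 2-fold, against 3559, 4033, 1006 and 606 in edgeR. Leaving out 1 library gave 2758 to 3929 rises, 3068 to 4440 falls, 929 to 1104 rises of at least 2-fold and 510 to 642 such falls. Scaling by library size alone moved the median log2 fold change of all genes from -0.03 to -0.10. With a replicate block the counts were 3528, 3966, 1008 and 598. Deviations of same-numbered libraries correlated at -0.030, -0.060 and 0.055 over 11574 genes. Whether same-numbered libraries share a culture or batch cannot be told from this, with 2 libraries a group, and the labels do not state it. Among list counts, DESeq2 brought falls in the HSP40 list from 9 to 3, in pausing genes from 14 to 9 and in translation factors from 9 to 3. Library size alone brought falls in the proteasome list to 7 and in the oxidative phosphorylation list from 4 to 11. The promoter window matters: counted only in the 150 bases before the start, the 3-unit element was in 1.51% of promoters at rises of at least 2-fold and 0.191% over all tested genes, against 2.57% and 0.371%. With 2 libraries a group, small changes of genes at low counts were not detectable at this depth.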

Other observations

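Some gene lists outside the main account held both rises and falls, beside 20.6% and 23.3% of all genes. Translation factors rose in 7 of 30 cases and fell in 9, with a median log2 fold change of -0.04. The 9 falls came to between 3 and 10 when 1 library was left out. EIF5, a GTPase activator of initiation, rose from 192 and 191.6 to 364.5 and 349.5 CPM, and EIF1, which guards start codon choice, from 206.1 and 216.4 to 318.7 and 326.4 CPM. Both heated libraries lay above both unheated ones for each gene.

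Nuclear import receptors rose in 6 of 23 cases and fell in 8 (5 to 9 falls when 1 library was left out). KPNA2, an importin alpha, fell from 577.1 and 550.6 to 406.8 and 409.9 CPM. Clock genes rose in 5 of 23 cases and fell in 9 (3 to 5 rises and 5 to 10 falls when 1 library was left out). PER1, a repressor of the clock, fell from 43.7 and 43.3 to 25.8 and 24.7 CPM, while DBP, a clock output factor, rose from 18.5 and 19.3 to 29.7 and 28.7 CPM. SLC7A11, the cystine importer and a target of NRF2, rose from 38.5 and 38.2 to 66.1 and 65.4 CPM.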
